A study of Mus musculus with 18 samples.

Results

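The genes described here encode the subunits of mouse integrins and laminins. They were chosen by symbol alone, as every gene listed in the deposited tables under a numbered or lettered integrin alpha, integrin beta or laminin chain name. This gave 37 of 35275 listed genes: 18 integrin alpha subunits, 8 integrin beta subunits, 5 laminin alpha chains, 3 laminin beta chains and 3 laminin gamma chains. Levels are in FPM, read counts that the authors divided by a size factor of each library. A total of 26 subunit genes reached 0.5 FPM in at least 3 libraries and were tested, among 13869 tested genes.

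The 18 RNA-seq libraries came from C2C12, an established line of mouse myoblasts that can fuse into myotubes when serum is lowered, and per the labels the stock of all groups was PAX7 NEG. Control cells carry the genotype label Wild-type. MUNC spliced and MUNC genomic cells overexpress the spliced or the genomic form of MUNC, a noncoding RNA gene that lies just upstream of the myogenic regulator gene Myod1. Each was sampled in growth medium with 20% FBS (GM) and after 3 days in medium with 2% HS (DM3), with 3 libraries in each of the 6 groups that the titles number as BR1 to BR3. The labels do not say whether a line is a clone or a pool, what drives MUNC, or whether control cells carry an empty vector, so the line and the overexpressed RNA cannot be told apart here. The level of MUNC was not analysed here, so overexpression was not checked. A separate label calls 9 samples myoblasts or myotubes against their titles, and the titles were used.

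Integrins are cell surface receptors made of 1 alpha and 1 beta subunit, and the pair sets which matrix protein or cell surface ligand is bound. Laminins are secreted trimers of an alpha, a beta and a gamma chain that form basement membranes. In skeletal muscle the laminin alpha 2 chain surrounds the fibres and binds integrin alpha 7 beta 1 and dystroglycan, and loss of this chain causes a congenital muscular dystrophy.

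Recovered depth was 38416702 to 68788327 reads per library, and 3 reads, taken as the upper limit for a gene without reads, came to at most 0.0757 FPM. This limit covers counting error only, since PCR copies of a molecule may be counted as separate reads. The myoblast markers Des, Myf5, Cdh15 and Chrna1 were present in all 18 libraries, and Pax7 was at most 0.147 FPM. Myod1 was at most 0.221 FPM in the control libraries of both media. In MUNC spliced cells Myod1 was at 8.84 to 17.9 FPM in GM and 16.0 to 53.35 in DM3. MUNC genomic cells had 1.66 to 6.995 FPM in GM and 14.5 to 22.5 in DM3. Of the markers of differentiated muscle, Myog (0.192 to 0.434 FPM), Myh3 (0.375 to 0.497 FPM), Ckm (0.0384 to 0.0553 FPM) and Actc1 (0 to 0.0197 FPM) were near 0 in control DM3. The troponin gene Tnnt1 was at 19.9 to 44.0 FPM there, against 0.0922 to 1.13 in control GM. In MUNC genomic DM3, Myog was at 6.50 to 14.7 FPM, Myh3 at 7.66 to 13.0, Ckm at 1.80 to 5.47 and Actc1 at 1.46 to 2.04. MUNC spliced DM3 had Myh3 at 24.2 to 177 FPM, Ckm at 0.732 to 5.05 and Actc1 at 5.32 to 35.7. Not all markers were higher in that group: Tnnt1, at 13.4 to 48.9 FPM, and Des, at 37.3 to 94.4 FPM, overlapped control DM3. Des was at 64.2 to 92.0 FPM in control DM3. MUNC genomic DM3 had Tnnt1 at 52.6 to 88.0 FPM and Des at 820 to 1010. Differentiation is used below as a name for the change from GM to DM3, whether or not these markers rose. MUNC spliced DM3 replicate 1 stood apart from replicates 2 and 3, with Myog at 226, 52.6 and 41.0 FPM in replicates 1, 2 and 3, and results that change without it are marked. Same-numbered libraries of different lines deviated together, and values from the fit with the replicate number as a block are given where the numbers pair the samples and the block changes a call.

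Per kilobase of exon, Itgb1, the beta subunit shared by most matrix receptors of muscle, was the most abundant of the 37 genes in all 6 groups. Its group means ran from 232 FPM per kb in control GM to 343 in MUNC genomic DM3. It was followed in control GM by Itga5, the fibronectin receptor subunit, at 68.2, Itgb5, a partner of alpha v, at 45.3, and Itga3, a laminin receptor subunit, at 43.7 FPM per kb. The most abundant laminin chain there was Lamb1, at 33.3 FPM per kb, a widely expressed beta chain. Lamc1, its usual gamma partner, was at 28.8 and Lama5, an alpha chain of many adult basement membranes, at 21.4 FPM per kb. These are orders of group means, and those of Itgb5 and Itga3, or of Lamb1 and Lamc1, differed by less than the spread between libraries.

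**Figure D1:**
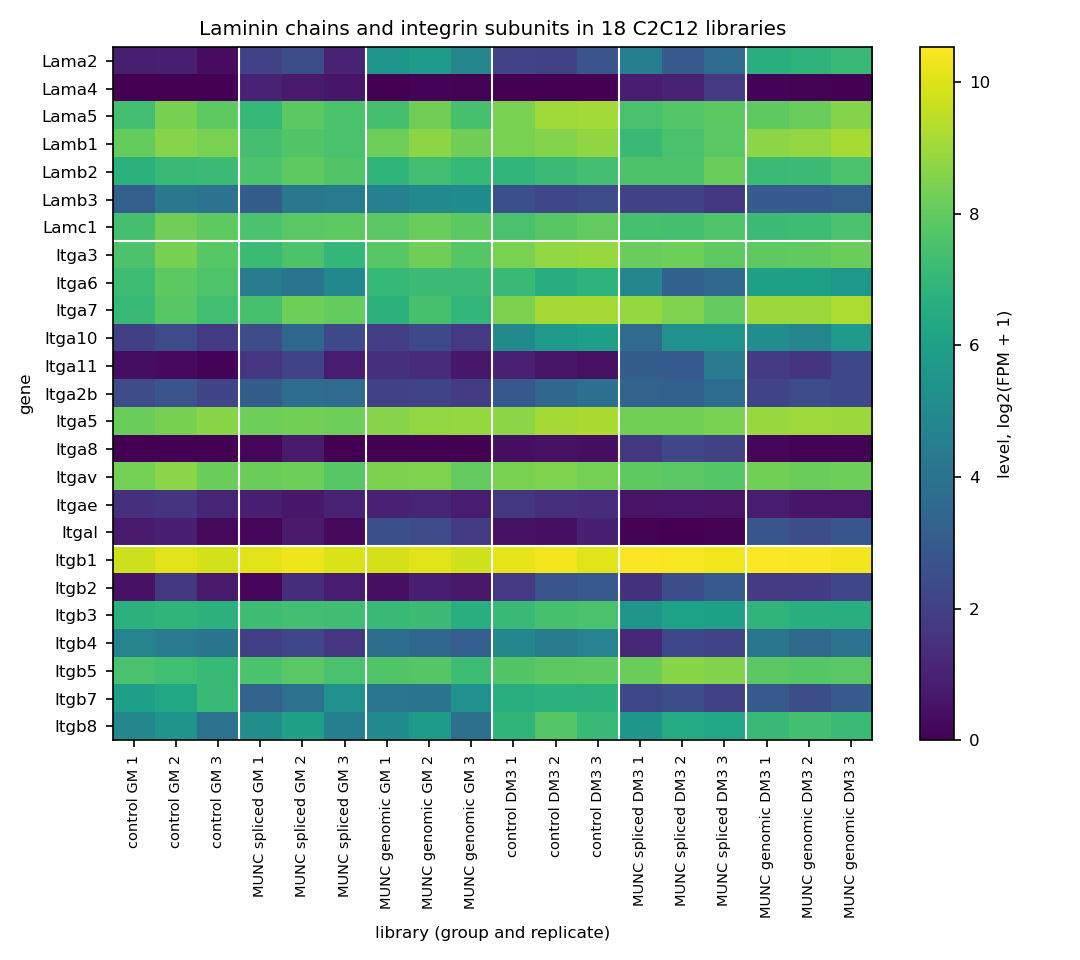
Level of 25 of the 26 tested genes (rows) in the 18 libraries (columns), as log2(FPM + 1) by colour. White lines separate laminin chains, integrin alpha and integrin beta subunits, and the 6 groups of 3 libraries. Lama2 is brightest in the 6 MUNC genomic libraries, Itgb7 is dark in DM3 of both MUNC lines, and Itgb1 is the brightest row.

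The 11 subunit genes that were not tested stayed low. Itga9, needed for lymphatic valves, and Itgax, of dendritic cells, did not pass 0.019 FPM in any library, and Lama1, the main embryonic alpha chain, did not pass 0.0177 FPM. Itgam, a macrophage subunit, reached 0.0368, Itga2, a collagen receptor subunit, 0.0789, and Itga4, which binds VCAM1 and fibronectin, 0.111 FPM. Itga1, another collagen receptor subunit, reached 0.323 FPM, Lamc3 0.369, Itgad 0.47 and Lama3, an epithelial alpha chain, 0.538 FPM. Itgb6, an epithelial partner of alpha v, reached 1.02 FPM in MUNC spliced DM3 replicate 1 and at most 0.398 FPM in the other libraries. Gm49368, a gene on the same strand, covers 68.7% of the exon bases of Itgam in GENCODE M21 and has no listed level. Whether all Itgam reads were counted cannot be told.

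Promoter sequence is shown for 4 genes that separated the groups and that the RefSeq promoter table holds: Lama2 and Itgb7, which differed most between lines, and Itgb5 and Itga2b, which hold the E-box CAGCTG, a sequence that MyoD-family factors can bind. Each is the 250 bases before the start annotated in RefSeq, 5′ to 3′ on the gene's strand, on GRCm38.p6, with CAGCTG in capitals. The gene spans given with the results below are from GENCODE M21 and can start elsewhere. The Lama2 window lies inside its GENCODE span, and those of Itga2b and Itgb7 lie partly inside theirs. Lama2 is at chr10:27616943-27617192 (minus strand), Itgb7 at chr15:102231936-102232185 (minus strand), Itgb5 at chr16:33829415-33829664 (plus strand) and Itga2b at chr11:102469884-102470133 (minus strand).
Lama2: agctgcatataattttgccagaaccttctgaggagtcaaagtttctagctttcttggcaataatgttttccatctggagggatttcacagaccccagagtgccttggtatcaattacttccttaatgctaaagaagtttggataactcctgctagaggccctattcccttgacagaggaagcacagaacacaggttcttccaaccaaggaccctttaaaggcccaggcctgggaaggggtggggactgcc
Itgb7: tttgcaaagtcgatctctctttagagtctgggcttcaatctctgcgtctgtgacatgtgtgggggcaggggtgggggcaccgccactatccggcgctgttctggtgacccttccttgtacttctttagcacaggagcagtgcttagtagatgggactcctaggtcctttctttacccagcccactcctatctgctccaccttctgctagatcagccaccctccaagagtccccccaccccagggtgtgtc
Itgb5: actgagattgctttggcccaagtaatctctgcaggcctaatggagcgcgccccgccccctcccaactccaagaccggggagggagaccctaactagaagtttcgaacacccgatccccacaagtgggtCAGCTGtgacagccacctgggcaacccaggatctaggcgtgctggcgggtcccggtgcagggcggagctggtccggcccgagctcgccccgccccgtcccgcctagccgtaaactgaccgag
Itga2b: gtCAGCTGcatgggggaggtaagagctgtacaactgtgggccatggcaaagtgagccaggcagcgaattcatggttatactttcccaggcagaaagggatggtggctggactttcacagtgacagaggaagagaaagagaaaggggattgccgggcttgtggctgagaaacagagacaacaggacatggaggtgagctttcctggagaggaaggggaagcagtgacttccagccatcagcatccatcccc
CAGCTG, which reads the same on both strands, was found in 6 of the 26 promoter entries that matched 23 of the 37 genes, those of Itga1, Itga2b, Itga4, Itga9, Itgb5 and Lamb3, and in 13.1% of all 32536 promoter entries of that length. These matches describe the letters in this window. Lamb3, which was lower in DM3 than in GM in each line, is not printed. Itga6, Itga7 and Itgb4 are among the genes without an entry.

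Lama2 (ENSMUSG00000019899, chr10:26980036-27619758), the laminin alpha 2 chain of muscle basement membrane, was low in control cells and high in MUNC genomic cells in both media. In GM it stood at 0.871, 0.885 and 0.261 FPM in the control libraries, 3.05, 4.8 and 0.992 in MUNC spliced and 45.0, 54.7 and 26.6 in MUNC genomic. In DM3 it stood at 3.38, 3.18 and 5.76 FPM in control, 22.3, 7.02 and 11.7 in MUNC spliced and 98.4, 112 and 142 in MUNC genomic. All 6 MUNC genomic libraries lay above all other libraries. The mean was 62.6-fold that of control in GM (42.1 ± 14.3 against 0.672 ± 0.356 FPM, SD, n = 3 each) and 28.6-fold in DM3 (117 ± 22.0 against 4.11 ± 1.44 FPM, SD, n = 3 each). Changes are given from here on as limma estimates on the log2(FPM + 1) scale, which understates low genes, with a Benjamini-Hochberg adjusted p over all tested genes, and a gene is called where that p is under 0.05. By this test Lama2 was higher in MUNC genomic than control by 4.65 (SE 0.40, adjusted p 1.63e-07) in GM and 4.55 (SE 0.40, adjusted p 1.16e-07) in DM3. In bulk RNA, more cells with the transcript and more transcript per cell cannot be told apart.

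MUNC spliced cells held less Lama2 than MUNC genomic cells, with log2 changes of -3.52 (SE 0.40, adjusted p 3.42e-06) in GM and -3.13 (SE 0.40, adjusted p 8e-06) in DM3. Against control, MUNC spliced cells were higher by 1.13 (SE 0.40, adjusted p 0.0356) in GM and 1.42 (SE 0.40, adjusted p 0.00846) in DM3, with no overlap between libraries in either medium. The GM call is fragile: it was lost in 7 of 18 alternatives, over which the adjusted p from limma, edgeR or DESeq2 ran from 0.00158 to 0.178. Among these were the fits without control GM replicate 1 (1.23) or 3 (0.94) and without MUNC spliced GM replicate 1 (1.05) or 2 (0.79). In DM3 the change without MUNC spliced DM3 replicate 1 was 1.02 (limma adjusted p 0.0511, within a range of 0.000675 to 0.0511 over the alternatives). Lama2 rose on differentiation in each line, by 1.60 (SE 0.40, adjusted p 0.00258) in control, 1.89 (SE 0.40, adjusted p 0.00174) in MUNC spliced and 1.50 (SE 0.40, adjusted p 0.00483) in MUNC genomic cells. All DM3 libraries of a line lay above its GM libraries, and neither interaction was called for Lama2.

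The MUNC genomic line, highest in Lama2, also stood apart in 1 endothelial marker. Cdh5, of vascular junctions, was at 7 to 7.21 FPM in GM and 3.79 to 4.99 in DM3, and at most 0.407 FPM in the other 4 groups. Tek, of the same list, set the MUNC spliced line apart instead. It was at 0.733 to 1.565 FPM in MUNC spliced cells and at most 0.297 FPM in control and MUNC genomic cells. The whole list of 8 endothelial markers summed to 7.14 to 7.64 FPM in MUNC genomic GM, 4.1 to 5.42 in MUNC genomic DM3, 0.273 to 0.779 in control GM, 0.384 to 0.671 in control DM3, 0.917 to 1.74 in MUNC spliced GM and 1.24 to 1.63 in MUNC spliced DM3. Erg was at 0 in all libraries, and Kdr and Cldn5, both defining endothelial genes, did not pass 0.0301 FPM. Of 6 Schwann cell markers, the defining Foxd3 was at 0 and Sox10 did not pass 0.021 FPM. Des, the muscle intermediate filament gene, was at 332 to 622 FPM in MUNC genomic GM against 16.0 to 32.7 in control GM. The part of these differences in the Lama2 result was not tested.

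Lama5 (ENSMUSG00000015647, chr2:180176373-180225859) carried most of the laminin alpha transcripts in all 6 groups. It stood at 165, 326 and 239 FPM in control GM and 339, 516 and 535 in control DM3, a rise of 0.95 (SE 0.29, adjusted p 0.0092). MUNC spliced cells had 126, 231 and 185 FPM in GM and 183, 212 and 234 in DM3, and MUNC genomic cells had 169.9, 304 and 174 FPM in GM and 238, 282 and 382 in DM3. The rise with differentiation was not called in either MUNC line, and in DM3 Lama5 was lower than control in MUNC spliced cells (-1.12, SE 0.29, adjusted p 0.0048), with no overlap. Lama4 (ENSMUSG00000019846, chr10:38965515-39110188), an alpha chain of vessels and of early muscle, was a low transcript of MUNC spliced cells. It stood at 1.01, 0.678 and 0.559 FPM in MUNC spliced GM and 0.759, 1.06 and 2.35 in MUNC spliced DM3, and did not pass 0.0844 FPM in the other groups, with 0 reads in all 3 control GM libraries. It passed the filter on low values through its MUNC spliced libraries alone, so its calls between MUNC spliced and other cells are a description. It was higher in MUNC spliced than control by 0.80 (SE 0.16, adjusted p 0.00137) in GM and 1.19 (SE 0.16, adjusted p 2.51e-05) in DM3, and higher than MUNC genomic by 0.73 (SE 0.16, adjusted p 0.00253) in GM and 1.15 (SE 0.16, adjusted p 2.77e-05) in DM3. No fold is given, because control held at most 1 read of it in a library.

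Among the laminin beta chains, MUNC spliced cells differed in proportion. Lamb1 (ENSMUSG00000002900, chr12:31265234-31329644) stood at 265, 387 and 338 FPM in control GM, 173, 205 and 179.8 in MUNC spliced GM and 295, 409 and 303 in MUNC genomic GM. The DM3 libraries held 339, 386 and 443 FPM in control, 139, 181 and 224 in MUNC spliced and 412, 457 and 573 in MUNC genomic. MUNC spliced libraries were the lowest in both media, with log2 changes of -0.81 (SE 0.19, adjusted p 0.00333) against control in GM, -1.12 (SE 0.19, adjusted p 0.000175) against control in DM3 and -1.42 (SE 0.19, adjusted p 1.32e-05) against MUNC genomic in DM3. Lamb2 (ENSMUSG00000052911, chr9:108479736-108490530), the beta 2 chain concentrated at the neuromuscular junction, moved the other way in these cells. It stood at 188, 244 and 201.0 FPM in MUNC spliced GM against 107, 137 and 149 in control GM (0.69, SE 0.18, adjusted p 0.00673), and at 192, 189.5 and 274 in MUNC spliced DM3 against 122, 149 and 167 in control DM3 (0.57, SE 0.18, adjusted p 0.016). Per length, Lamb2 made up 62.3% ± 1.03 of the beta chains in MUNC spliced GM and 65.8% ± 3.08 in MUNC spliced DM3 (SD, n = 3 each). The share was 38.0% ± 2.66 in control GM, 37.5% ± 0.919 in control DM3, 37.2% ± 0.672 in MUNC genomic GM and 34.6% ± 1.12 in MUNC genomic DM3 (SD, n = 3 each). The 6 MUNC spliced libraries lay above the other 12 in this share.

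Lamb3 (ENSMUSG00000026639, chr1:193207699-193343878) is a beta chain of epithelial basement membranes. It fell on differentiation in each line, with no overlap. In control it went from 8.14, 17.8 and 14.9 FPM in GM to 4.99, 3.71 and 4.33 in DM3 (-1.40, SE 0.29, adjusted p 0.000584). In MUNC spliced cells it went from 7.65, 17.3 and 18.9 to 3.15, 3.12 and 2.22 FPM (-1.95, SE 0.29, adjusted p 0.000115). MUNC genomic cells went from 23.5, 31.0 and 34.2 to 7.22, 7.09 and 8.2 FPM (-1.83, SE 0.29, adjusted p 7.03e-05). MUNC genomic libraries were the highest in GM, by 1.11 (SE 0.29, adjusted p 0.00834) against control, and this call was lost without control GM replicate 1, the lowest control library (0.81, limma adjusted p 0.052, within 9.78e-05 to 0.052 over the alternatives). MUNC spliced cells held less than MUNC genomic cells in GM (-1.04, SE 0.29, adjusted p 0.00936; -0.66 without MUNC spliced GM replicate 1, where the call was lost) and in DM3 (-1.16, SE 0.29, adjusted p 0.00358).

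Lamc1 (ENSMUSG00000026478, chr1:153218922-153332786), the gamma chain of most laminins, stood at 226 to 274 FPM in MUNC genomic GM and 147 to 184 in MUNC genomic DM3, and its fall on differentiation of MUNC genomic cells (-0.60, SE 0.18, adjusted p 0.00946) was its only call in the 11 comparisons without the replicate block.

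**Figure D2:**
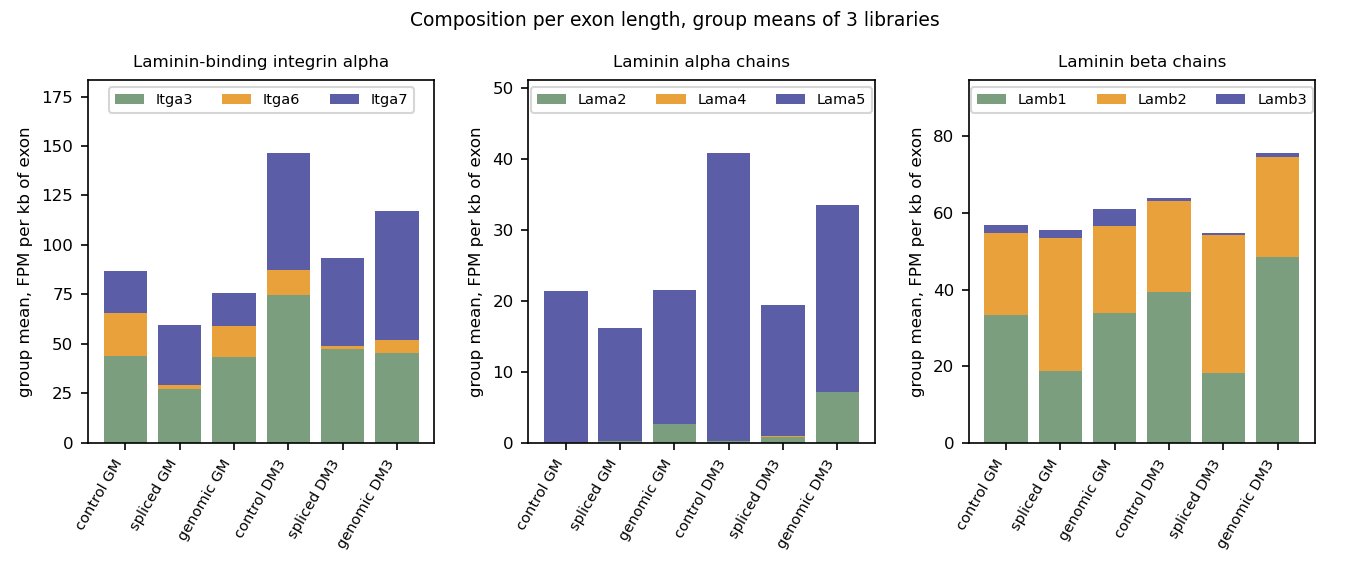
Group means per kilobase of exon (FPM per kb) of the laminin-binding integrin alpha subunits, the laminin alpha chains and the laminin beta chains in the 6 groups, stacked by gene. Itga6 is thin in both MUNC spliced groups, Lama2 shows in the MUNC genomic groups, and Lamb2 is the larger part of the beta chains in MUNC spliced cells only.

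The receptors for laminin changed in composition as well. Itga6 (ENSMUSG00000027111, chr2:71745616-71858416), which pairs with beta 1 or beta 4, was low in MUNC spliced cells in both media. In GM it stood at 152, 235 and 199.8 FPM in control, 20.8, 15.6 and 29.0 in MUNC spliced and 130.5, 148 and 148 in MUNC genomic. After 3 days in DM3 the values were 134, 94.1 and 111 FPM in control, 28.6, 8.64 and 11.2 in MUNC spliced and 61.9, 62.1 and 48.5 in MUNC genomic. No MUNC spliced library overlapped any library of the other lines. The mean was 8.97-fold lower than control in GM (-3.13, SE 0.31, adjusted p 1.22e-06) and 7.01-fold lower in DM3 (-2.90, SE 0.31, adjusted p 1.78e-06), and MUNC spliced cells were also below MUNC genomic cells (-2.69, SE 0.31, adjusted p 4.46e-06 in GM and -1.94, SE 0.31, adjusted p 8.91e-05 in DM3). MUNC genomic cells were below control in DM3 only (-0.96, SE 0.31, adjusted p 0.021), and the 3 GM libraries lay below those of control without a call (-0.43, SE 0.31, adjusted p 0.337). Differentiation lowered Itga6 in control (-0.78, SE 0.31, adjusted p 0.0419) and MUNC genomic cells (-1.30, SE 0.31, adjusted p 0.00238).

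Itgb4 (ENSMUSG00000020758, chr11:115974709-116008412), the beta subunit that pairs with alpha 6 in hemidesmosomes, was low in the same cells. It stood at 25.1, 19.9 and 15.5 FPM in control GM, 2.83, 3.74 and 2.15 in MUNC spliced GM and 12.6, 10.9 and 7.79 in MUNC genomic GM. In DM3 it stood at 28.4, 21.3 and 24.7 FPM in control, 1.27, 3.71 and 3.51 in MUNC spliced and 16.8, 11.5 and 14.9 in MUNC genomic. Both media ordered the lines alike, control above MUNC genomic above MUNC spliced, with no overlap. MUNC spliced cells were 6.94-fold below control in GM (-2.43, SE 0.27, adjusted p 3.6e-06) and 8.77-fold below in DM3 (-2.82, SE 0.27, adjusted p 4.47e-07). Against MUNC genomic cells their log2 changes were -1.55 (SE 0.27, adjusted p 0.000264) in GM and -2.06 (SE 0.27, adjusted p 9.42e-06) in DM3. MUNC genomic cells were below control, with log2 changes of -0.89 (SE 0.27, adjusted p 0.0205) in GM and -0.75 (SE 0.27, adjusted p 0.0326) in DM3. Differentiation changed Itgb4 in no line by the test.

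Among 10 epithelial markers, Epcam, a defining one, did not pass 0.0368 FPM. The list summed to 24.4 to 66.3 FPM in control GM, 67.3 to 138 in MUNC spliced GM, 51.2 to 88.2 in MUNC genomic GM, 1.2 to 1.84 in control DM3, 16.5 to 41.4 in MUNC spliced DM3 and 11.99 to 18.7 in MUNC genomic DM3. Krt14, a keratin, made up most of these sums in GM. The sums and Krt14 were lower in DM3 than in GM without overlap in each line, as was Lamb3. Trp63 and Krt8 did not follow them. Trp63, a regulator of basal epithelia, was at 0.974 to 6.64 FPM in MUNC spliced GM and 5.98 to 11.5 in MUNC spliced DM3, and at 0 to 0.243 and 1.87 to 2.49 in MUNC genomic cells. Krt8, of simple epithelia, was at 7.73 to 14.9 FPM in MUNC genomic GM and 9.02 to 13.4 in MUNC genomic DM3, and at most 0.711 FPM in the other groups. The MUNC spliced cells, lowest in Itga6 and Itgb4, did not have the lowest sums. The part of these markers in the results was not tested.

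Itga7 (ENSMUSG00000025348, chr10:128933818-128958282), the muscle laminin receptor subunit, rose on differentiation of control and MUNC genomic cells. It went from 140.3, 221 and 159 FPM in control GM to 346, 546 and 552 in control DM3 (2.77-fold, 1.46, SE 0.26, adjusted p 0.000151) and from 109, 174 and 125 to 488, 498 and 599 in MUNC genomic cells (3.89-fold, 1.97, SE 0.26, adjusted p 1.32e-05). In MUNC spliced cells it stood at 175, 294 and 259.5 FPM in GM and 468, 357 and 256 in DM3, the libraries overlapped and the change was not called (0.56, SE 0.26, adjusted p 0.1), although it was without replicate 3 of MUNC spliced DM3 (0.78, limma adjusted p 0.0432, within 0.0432 to 0.367 over the alternatives). The difference between MUNC spliced and control cells in this response was not called (-0.90, SE 0.36, adjusted p 0.103), nor was that of MUNC genomic cells (0.51, SE 0.36, adjusted p 0.444). Against control, Itga7 was not called in MUNC spliced cells (0.48, SE 0.26, adjusted p 0.162 in GM and -0.43, SE 0.26, adjusted p 0.193 in DM3) or in MUNC genomic cells (-0.35, SE 0.26, adjusted p 0.347 in GM and 0.16, SE 0.26, adjusted p 0.655 in DM3). Between the MUNC lines in GM it was higher in MUNC spliced cells by 0.83 (SE 0.26, adjusted p 0.0188).

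As a share of the laminin-binding alpha subunits per length, Itga7 made up 24.8% ± 0.6 in control GM, 50.2% ± 6.18 in MUNC spliced GM and 22.0% ± 1.79 in MUNC genomic GM (SD, n = 3 each). In DM3 the shares were 40.2% ± 3.33, 47.0% ± 5.42 and 55.7% ± 1.19 in the same order (SD, n = 3 each). The MUNC spliced GM libraries lay above the other GM libraries in this share, and held less Itga6 and Itga3. Itga3 (ENSMUSG00000001507, chr11:95044474-95076801), the alpha 3 subunit of epithelial and myoblast laminin receptors, stood at 194 to 332 FPM in control GM and 341 to 481 in control DM3. It rose on differentiation of control (0.79, SE 0.20, adjusted p 0.0033) and MUNC spliced cells (0.82, SE 0.20, adjusted p 0.00518), and was lower than control in MUNC spliced cells in GM (-0.68, SE 0.20, adjusted p 0.0159) and in DM3 (-0.65, SE 0.20, adjusted p 0.0165) as well as in DM3 of the MUNC genomic line (-0.70, SE 0.20, adjusted p 0.0112).

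Itgb1 (ENSMUSG00000025809, chr8:128685654-128733200), the partner of these alpha subunits, moved little. It stood at 839, 1063 and 935 FPM in control GM, 1076, 1229 and 973 in MUNC spliced GM and 919, 1063 and 879 in MUNC genomic GM. The DM3 libraries held 1115, 1251 and 1026 FPM in control, 1404, 1391 and 1254 in MUNC spliced and 1477, 1424 and 1294 in MUNC genomic. It was called on differentiation of MUNC genomic cells (0.55, SE 0.13, adjusted p 0.00226) and not of control (0.26, SE 0.13, adjusted p 0.1) or MUNC spliced cells (0.31, SE 0.13, adjusted p 0.0769). Against control it was not called in GM (0.21, SE 0.13, adjusted p 0.23 in MUNC spliced, 0.01, SE 0.13, adjusted p 0.957 in MUNC genomic) or in DM3 (0.26, SE 0.13, adjusted p 0.125 and 0.31, SE 0.13, adjusted p 0.072). With the replicate block, which leaves these changes as they are, the limma adjusted p was 0.023 for control DM3 against GM, 0.0299 for MUNC spliced and 0.0126 for MUNC genomic against control in DM3, all called. With the block within each medium, an alternative chosen after seeing the data, it was 0.034 for MUNC spliced against control in GM. Over all alternatives the adjusted p ran from 0.023 to 0.312 for control DM3 against GM, where leaving out control GM replicate 2 also gave a call (0.35). It ran from 0.0106 to 0.338 and 0.00384 to 0.229 for MUNC spliced and MUNC genomic against control in DM3, and from 0.034 to 0.577 for MUNC spliced against control in GM. The change on differentiation of MUNC spliced cells was called without MUNC spliced GM replicate 2 (0.40). Its adjusted p ran from 0.0139 to 0.268, the lowest with the replicate block, whose numbers do not pair the samples there.

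**Figure D3:**
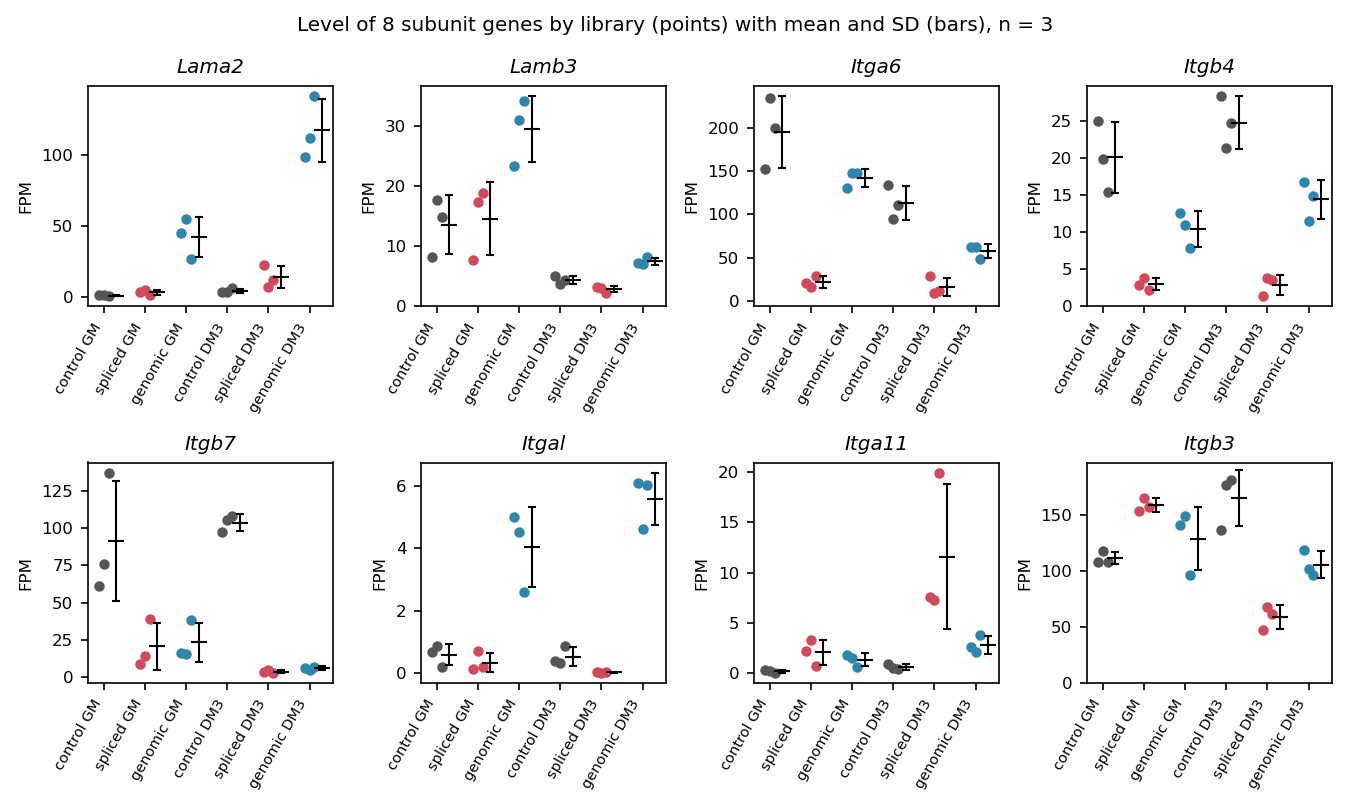
Level in FPM of 8 subunit genes in each library (points) of the 6 groups, with the mean and SD (black, n = 3). The 6 MUNC genomic libraries are highest in Lama2 and Itgal, the 6 MUNC spliced libraries are lowest in Itga6 and Itgb4, and Itgb3 lies above control in MUNC spliced GM and below it in MUNC spliced DM3.

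Of the collagen-binding alpha subunits, Itga10 (ENSMUSG00000090210, chr3:96645584-96664519), known from cartilage, was the one with the largest rise on differentiation among all 26 genes in control cells. It went from 3.04, 4.46 and 2.46 FPM in control GM to 31.4, 50.3 and 59.7 in control DM3, 14.2-fold (3.46, SE 0.41, adjusted p 4.31e-06). In MUNC genomic cells it went from 2.92, 4.05 and 2.44 to 34.7, 26.9 and 48.9 FPM, 11.7-fold (3.17, SE 0.41, adjusted p 1.38e-05), and in MUNC spliced cells from 4.62, 10.9 and 4.06 to 11.7, 39.1 and 40.6, 4.66-fold (1.99, SE 0.41, adjusted p 0.00163). The DM3 libraries lay above the GM libraries in each line, and MUNC spliced DM3 replicate 1 was the lowest DM3 library. Without the replicate block, no difference between lines was called for Itga10. Gm42957, a gene on the same strand, covers 33.5% of its exon bases in GENCODE M21 and has no row of its own in the table used here. Whether reads of the shared bases were counted under Itga10 cannot be told.

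Itga11 (ENSMUSG00000032243, chr9:62677826-62783982), the alpha 11 subunit of fibroblast collagen receptors, was higher in MUNC spliced cells. It stood at 0.307, 0.212 and 0.0615 FPM in control GM, 2.2, 3.28 and 0.757 in MUNC spliced GM and 1.86, 1.55 and 0.609 in MUNC genomic GM. After 3 days in DM3 the values were 0.96, 0.533 and 0.405 FPM in control, 7.59, 7.25 and 19.9 in MUNC spliced and 2.59, 2.08 and 3.84 in MUNC genomic. MUNC spliced DM3 libraries were above all others, and replicate 3 was the highest of them. The mean was 18.3-fold control in DM3 (2.82, SE 0.35, adjusted p 8.34e-06) and above MUNC genomic DM3 by 1.60 (SE 0.35, adjusted p 0.0014). It was also above control in MUNC spliced GM (1.28, SE 0.35, adjusted p 0.00948), where the call was lost without MUNC spliced GM replicate 2 (0.99), and in MUNC genomic DM3 (1.22, SE 0.35, adjusted p 0.0102), where it was lost without MUNC genomic DM3 replicate 3 (1.04). It rose on differentiation of MUNC spliced cells (1.98, SE 0.35, adjusted p 0.000469). The 7 fibroblast markers summed to 7999 to 14873 FPM in MUNC spliced GM, 3292 to 9286 in MUNC genomic GM, 4003 to 6800 in control GM, 13295 to 13825 in MUNC spliced DM3, 9762 to 11134 in MUNC genomic DM3 and 6920 to 8207 in control DM3. Col1a1 and Col3a1, collagen genes, made up most of these sums. In MUNC spliced DM3, Pdgfra was at 8.73 to 14.0 FPM, Dcn at 176 to 549.5 and Lum at 0.323 to 4.01. In control DM3 they were at 8.246 to 12.05, 126 to 241.5 and 0.8089 to 1.75 FPM, in that order. MUNC genomic DM3 held 24.89 to 26.81, 114.1 to 240.4 and 6.596 to 10.11 FPM, the highest Pdgfra and Lum in DM3. Twist2 was at 4.675 to 9.577 FPM in MUNC spliced GM, below the 10.34 to 19.15 of control GM, and overlapped control in DM3. Thy1 did not pass 0.0368 FPM in any library. Their part in the Itga11 result was not tested.

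The receptors that bind the RGD sequence of fibronectin and vitronectin held abundant subunits (Itga5, Itgav, Itgb5) and low ones (Itga8, Itga2b). Itga5 (ENSMUSG00000000555, chr15:103344286-103366763) stood at 276 to 399 FPM in control GM and 413 to 578 in control DM3, a called rise (0.61, SE 0.14, adjusted p 0.00113). MUNC spliced DM3 libraries, at 311 to 343 FPM, lay below control DM3 (-0.65, SE 0.14, adjusted p 0.00103) and MUNC genomic DM3 (-0.61, SE 0.14, adjusted p 0.00166), and MUNC spliced GM lay below MUNC genomic GM (-0.52, SE 0.14, adjusted p 0.007). Itgav (ENSMUSG00000027087, chr2:83724397-83806916), the alpha v subunit, was called, without the replicate block, only as lower in MUNC spliced DM3, at 215 to 241 FPM, than in control DM3 (-0.58, SE 0.15, adjusted p 0.00519) and MUNC genomic DM3 (-0.38, SE 0.15, adjusted p 0.0486). Itga8 (ENSMUSG00000026768, chr2:12106632-12301922), a nephronectin receptor subunit, was at 0 reads in the 3 control GM libraries, at 0.307, 0.375 and 0.313 FPM in control DM3, 0.151, 0.678 and 0 in MUNC spliced GM and 2.26, 3.69 and 3.18 in MUNC spliced DM3. It did not pass 0.0989 FPM in MUNC genomic cells. MUNC spliced DM3 lay above all other groups, by 1.59 (SE 0.15, adjusted p 5.44e-07) against control and 1.92 (SE 0.15, adjusted p 3.44e-08) against MUNC genomic, and rose from MUNC spliced GM by 1.68 (SE 0.15, adjusted p 1.09e-06). Itga8 passed the filter on low values through MUNC spliced libraries alone, so these calls are a description. The small rise in control cells was also called (0.41, SE 0.15, adjusted p 0.0288).

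Itga2b (ENSMUSG00000034664, chr11:102453297-102470122), the alpha subunit of the platelet fibrinogen receptor, was a low transcript that differed between the MUNC lines. It stood at 4.49, 5.91 and 3.55 FPM in control GM, 7.67, 12.7 and 11.98 in MUNC spliced GM and 3.06, 3.48 and 2.6 in MUNC genomic GM. In DM3 it stood at 6.47, 10.8 and 13.5 FPM in control, 9.07, 8.71 and 12.2 in MUNC spliced and 3.5, 4.38 and 3.9 in MUNC genomic. MUNC spliced cells exceeded MUNC genomic cells in both media without overlap (1.52, SE 0.23, adjusted p 9.12e-05 in GM and 1.15, SE 0.23, adjusted p 0.000794 in DM3). Against control, MUNC spliced cells were higher in GM (1.05, SE 0.23, adjusted p 0.00238) and MUNC genomic cells lower in DM3 (-1.14, SE 0.23, adjusted p 0.000924), and control cells rose on differentiation (0.96, SE 0.23, adjusted p 0.00216).

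Itgb3 (ENSMUSG00000020689, chr11:104608000-104670476), the partner of alpha v and of alpha IIb, changed direction with the medium in MUNC spliced cells. It stood at 108, 118 and 109 FPM in control GM and 154, 166 and 158 in MUNC spliced GM, where it was higher (0.51, SE 0.16, adjusted p 0.0217). The DM3 libraries held 137, 177 and 182 FPM in control and 47.0, 67.9 and 61.7 in MUNC spliced, where it was 2.81-fold lower (-1.48, SE 0.16, adjusted p 2.16e-06). Neither pair of groups overlapped. It thus rose on differentiation of control cells (0.55, SE 0.16, adjusted p 0.00766) and fell 2.71-fold in MUNC spliced cells (-1.44, SE 0.16, adjusted p 9.71e-06). MUNC genomic cells had 141, 149 and 96.7 FPM in GM and 119, 102 and 96.2 in DM3, a change that was not called (-0.27, SE 0.16, adjusted p 0.183), and were below control in DM3 (-0.64, SE 0.16, adjusted p 0.00483).

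Itgb5 (ENSMUSG00000022817, chr16:33829665-33949338), whose promoter is printed above, was highest in MUNC spliced DM3. It stood at 183, 161 and 139.6 FPM in control GM, 188, 228 and 182 in MUNC spliced GM and 205, 216 and 154 in MUNC genomic GM. After 3 days in DM3 the values were 208, 235 and 238 FPM in control, 283, 401 and 369.7 in MUNC spliced and 234, 217 and 225 in MUNC genomic. It rose on differentiation of control (0.50, SE 0.15, adjusted p 0.00941) and MUNC spliced cells (0.81, SE 0.15, adjusted p 0.000691) and was above control in MUNC spliced DM3 (0.62, SE 0.15, adjusted p 0.00337). Itgb8 (ENSMUSG00000025321, chr12:119158022-119238802), the alpha v partner that activates latent TGF-beta, rose in control from 28.7, 42.4 and 14.3 to 118, 215 and 138 FPM (5.5-fold, 2.50, SE 0.45, adjusted p 0.000204). The MUNC genomic line went from 33.3, 52.4 and 13.9 to 134, 166 and 145 FPM (4.47-fold, 2.31, SE 0.45, adjusted p 0.000525). MUNC spliced cells had 35.4, 64.2 and 22.0 FPM in GM and 47.2, 88.5 and 72.2 in DM3, which overlapped and were not called (0.84, SE 0.45, adjusted p 0.158). MUNC spliced DM3 lay below control DM3 without overlap (-1.16, SE 0.45, adjusted p 0.0479), a call that was lost in 9 of 18 alternatives, with adjusted p from limma, edgeR or DESeq2 of 5.32e-06 to 0.176. Among these were the fits without control DM3 replicate 2 (-0.91) or 3 (-1.23) and without MUNC spliced DM3 replicate 1 (-0.91) or 3 (-1.22). The interaction was not called for Itgb8 (-1.65, SE 0.64, adjusted p 0.0925).

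Some subunits known from leukocytes were expressed. Itgb7 (ENSMUSG00000001281, chr15:102215995-102231944), the beta subunit of gut-homing lymphocyte receptors, was prominent in control cells and low in both MUNC lines. In GM it stood at 61.2, 76.1 and 137 FPM in control, 9.24, 14.7 and 38.9 in MUNC spliced and 16.6, 15.6 and 38.6 in MUNC genomic, and replicate 3 was the highest of each group. In DM3 it stood at 97.2, 105 and 108 FPM in control, 3.93, 4.81 and 3.2 in MUNC spliced and 6.65, 4.8 and 7.22 in MUNC genomic. No library of either MUNC line overlapped control in the same medium. MUNC spliced cells were 4.37-fold lower than control in GM (-2.23, SE 0.41, adjusted p 0.000585) and 26.0-fold lower in DM3 (-4.40, SE 0.41, adjusted p 4.09e-07). MUNC genomic cells were 3.87-fold lower in GM (-1.95, SE 0.41, adjusted p 0.00215) and 16.6-fold lower in DM3 (-3.87, SE 0.41, adjusted p 1.26e-06). Itgb7 fell on differentiation of MUNC spliced (-1.91, SE 0.41, adjusted p 0.0021) and MUNC genomic cells (-1.66, SE 0.41, adjusted p 0.00307), and was not called in control (0.26, SE 0.41, adjusted p 0.615) or between the MUNC lines (-0.29, SE 0.41, adjusted p 0.622 in GM and -0.53, SE 0.41, adjusted p 0.312 in DM3). Per length, Itgb7 was at 33.0 FPM per kb in control GM, and its known alpha partners were at 0.353 (Itgae, alpha E) and 0 FPM per kb (Itga4).

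Itgal (ENSMUSG00000030830, chr7:127296260-127335138), the alpha L subunit of the lymphocyte receptor LFA-1, was higher in MUNC genomic cells. It stood at 5, 4.52 and 2.58 FPM in MUNC genomic GM and 6.09, 4.61 and 6.03 in MUNC genomic DM3, and at 0.683, 0.885 and 0.215 in control GM and 0.384, 0.335 and 0.884 in control DM3. MUNC spliced cells had 0.126, 0.697 and 0.198 FPM in GM and 0.038, 0.0174 and 0.0362 in DM3. The 6 MUNC genomic libraries lay above the other 12. Against control, the mean was 6.79-fold in GM (1.65, SE 0.21, adjusted p 2.15e-05) and 10.4-fold in DM3 (2.11, SE 0.21, adjusted p 6.95e-07). MUNC spliced cells were below MUNC genomic cells, with log2 changes of -1.90 (SE 0.21, adjusted p 3.26e-06) in GM and -2.67 (SE 0.21, adjusted p 3.57e-08) in DM3, and below control in DM3 (-0.56, SE 0.21, adjusted p 0.0442).

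Itgae (ENSMUSG00000005947, chr11:73090583-73147446) was lower than control in both MUNC lines, at 1.12 to 2.09 FPM in control GM, 0.587 to 1.06 in MUNC spliced GM, 0.777 to 1.15 in MUNC genomic GM, 1.55 to 2.25 in control DM3, 0.456 to 0.505 in MUNC spliced DM3 and 0.507 to 0.791 in MUNC genomic DM3. The changes were -0.50 (SE 0.14, adjusted p 0.0134) and -0.41 (SE 0.14, adjusted p 0.0438) in GM, where the MUNC genomic libraries overlapped control, and -0.93 (SE 0.14, adjusted p 7.76e-05) and -0.81 (SE 0.14, adjusted p 0.000282) in DM3. Itgb2 (ENSMUSG00000000290, chr10:77530252-77565708), the beta partner of Itgal, rose on differentiation in each line. It went from 0.444, 2.28 and 0.707 to 2.4, 5.58 and 6.74 FPM in control (1.47, SE 0.39, adjusted p 0.00411) and from 0.151, 1.59 and 0.757 to 1.94, 4.84 and 6.89 FPM in MUNC spliced cells (1.56, SE 0.39, adjusted p 0.00562). In MUNC genomic cells it went from 0.358, 0.844 and 0.63 to 2.51, 2.65 and 3.77 FPM (1.30, SE 0.39, adjusted p 0.0107), and no difference between lines was called without the replicate block. The leukocyte markers, of which 9 were in the table, summed to 4.95 to 6.68 FPM in control GM, 3.44 to 5.17 in MUNC spliced GM, 4.21 to 5.71 in MUNC genomic GM, 5.26 to 6.04 in control DM3, 3.35 to 4.12 in MUNC spliced DM3 and 4.8 to 4.85 in MUNC genomic DM3. Cd3e was at 0 in all libraries and Ptprc, the general leukocyte marker, did not pass 0.328 FPM, and Cd68 and Lyz2 made up most of the sums. Their part in the results for these subunits was not tested.

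In control cells more of these genes were higher in DM3 than were lower, although most markers of differentiated muscle stayed near 0 there. By limma, 12 of the 26 tested genes were higher in DM3 and 2 lower, where 29.6% of all 13869 tested genes were higher and 28.6% lower. Besides Itga10, Itgb8, Lama2, Itgb2 and Itga7, the higher genes were Itga2b, Itga5, Itga8, Itga3, Itgb3, Itgb5 and Lama5, at log2 changes of 0.41 to 0.96, and Itga6 joined Lamb3 among the lower. The median log2 change was 0.36 over the 26 genes and 0.02 over all genes tested. In MUNC spliced cells 7 genes were higher (Itga8, Itga10, Itga11, Itgb2, Lama2, Itga3 and Itgb5) and 4 lower (among them Itgb3, Itgb7 and Lamb3), where the background was 17.2% and 18.4%, with a median of 0.07 against -0.01 over all genes. Without MUNC spliced DM3 replicate 1 these were 8 and 5. Itga8, tested through its MUNC spliced libraries, is counted here. In MUNC genomic cells 7 were higher (Itga10, Itgb8, Itga7, Lama2, Itgb2, Itgb1 and Lamb1) and 5 lower (among them Lamb3, Itgb7, Itga6 and Lamc1), where the background was 26.3% and 25.1%, shares near those of the 26 genes, with a median of 0.23 against 0.02.

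**Figure D4:**
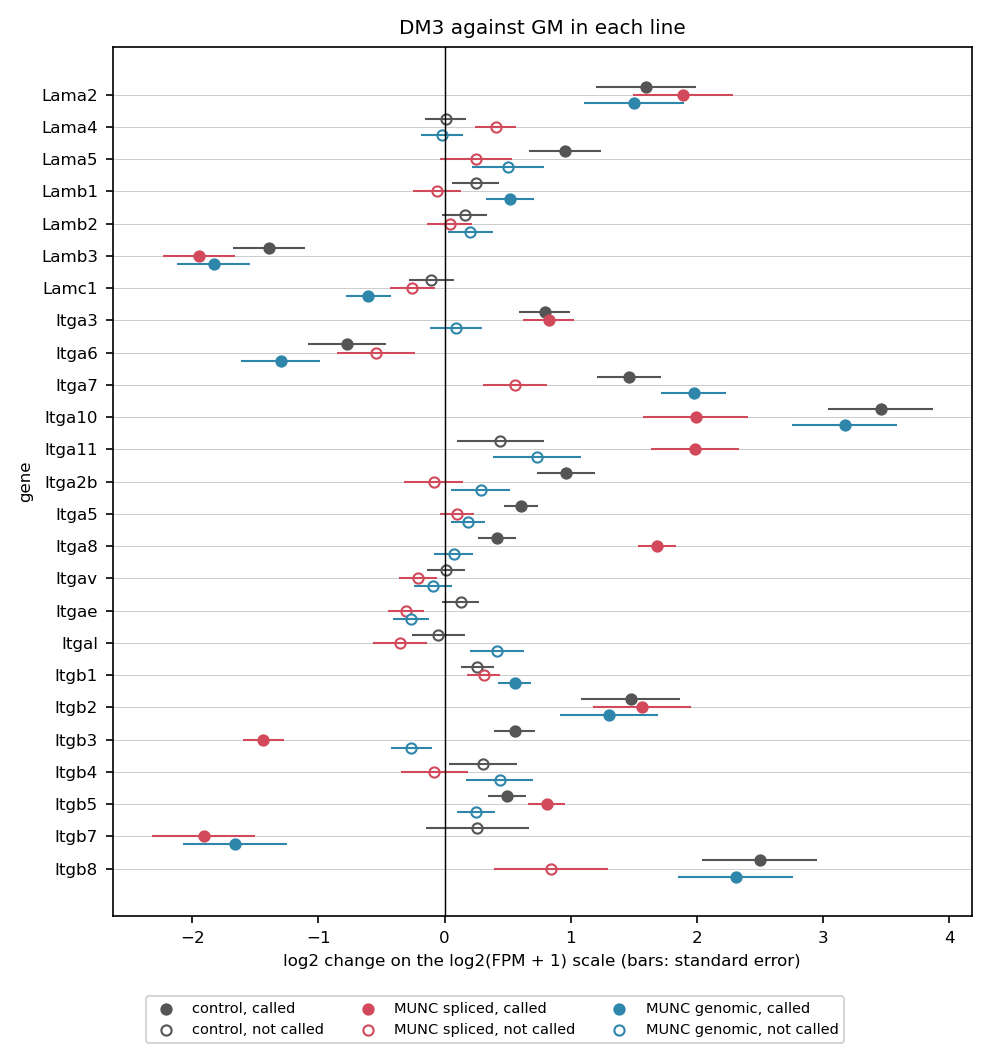
Log2 change of DM3 against GM for 25 of the 26 tested genes in control, MUNC spliced and MUNC genomic cells, on the log2(FPM + 1) scale, with the standard error as bars. Filled points were called. Itga10 and Itgb8 lie far right in control and MUNC genomic cells, and Itgb3 lies right of 0 in control and left of it in MUNC spliced cells.

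Against control in GM, MUNC spliced cells had 6 genes higher and 6 lower, where the background was 18.2% and 17.3%. Beside Itga11, Lama2 and Itga2b the higher genes were Itgb3, Lama4 and Lamb2, and beside Itgb7, Itgb4 and Itga6 the lower were Itga3, Itgae and Lamb1. Lama4, tested through its MUNC spliced libraries, is counted here. The median was -0.01 over the 26 genes and -0.02 over all genes. With the replicate block Itgav was also called (-0.36, limma adjusted p 0.0142). With the block within each medium, an alternative chosen after seeing the data, the added calls were Itgav (limma adjusted p 0.00156), Itga10 (0.72, 0.0375), Itgb1 (0.21, 0.034), Itgb5 (0.31, 0.0296), Itgb8 (0.49, 0.00476) and Lama5 (-0.41, 0.00635), each with its log2 change and adjusted p. MUNC genomic cells in GM had 3 genes higher (Lama2, Itgal and Lamb3) and 3 lower (Itgb7, Itgb4 and Itgae), where the background was 12.2% and 14.5%, with a median of 0.01 against -0.03. Without control GM replicate 1 the count in MUNC genomic cells was 3, 2 higher and 1 lower. For MUNC genomic cells the block added Itga5 (0.37, limma adjusted p 0.00857), and the block within each medium added Itga5 (0.00837) and Itga11 (0.93, limma adjusted p 0.0126). With FPM rescaled to equal sums the split was 4 higher and 2 lower, and with quantile normalization 5 and 3.

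In DM3, MUNC spliced cells had 13 of the 26 genes lower than control and 6 higher, where the background was 21% and 22.3%. The lower genes included Itgb7, Itga6, Itgb4, Itgb3 and Itgb8, and also Itga5, Itgav, Itga3, Itgae, Itgal, Lama5 and Lamb1, at log2 changes of -1.12 to -0.56, and the higher beside Itga11, Itga8, Lama2 and Lama4 were Itgb5 and Lamb2. The median was -0.57, against 0.01 over all genes. Lama4 and Itga8, tested through their MUNC spliced libraries, are counted here. Without MUNC spliced DM3 replicate 1 the counts were 11 lower and 5 higher. Beside Itgb1, the block within each medium added Itga10 (-0.75, limma adjusted p 0.0281) and Lamb3 (-0.48, limma adjusted p 0.0173). MUNC genomic cells had 8 genes lower and 3 higher in DM3, where the background was 20.9% and 19.3%, with a median of -0.26 against -0.01. The lower genes included Itga2b, Itgb7, Itga3, Itga6, Itgae, Itgb3 and Itgb4. Beside Itgb1, the replicate block added Lama5 (-0.62, limma adjusted p 0.00996), Lamb3 (0.68, limma adjusted p 0.042) and Lamc1 (-0.43, limma adjusted p 0.0135). With the block within each medium 18 genes were called here, 6 higher and 12 lower. The added genes were Itgb1 (0.31, adjusted p 0.00384 by limma, as for the others), Lamb3 (0.68, 0.0025), Lamb1 (0.30, 0.00652), Lama5 (-0.62, 0.000345), Lamc1 (-0.43, 0.00361), Itgav (-0.20, 0.0406) and Itgb2 (-0.50, 0.046).

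**Figure D5:**
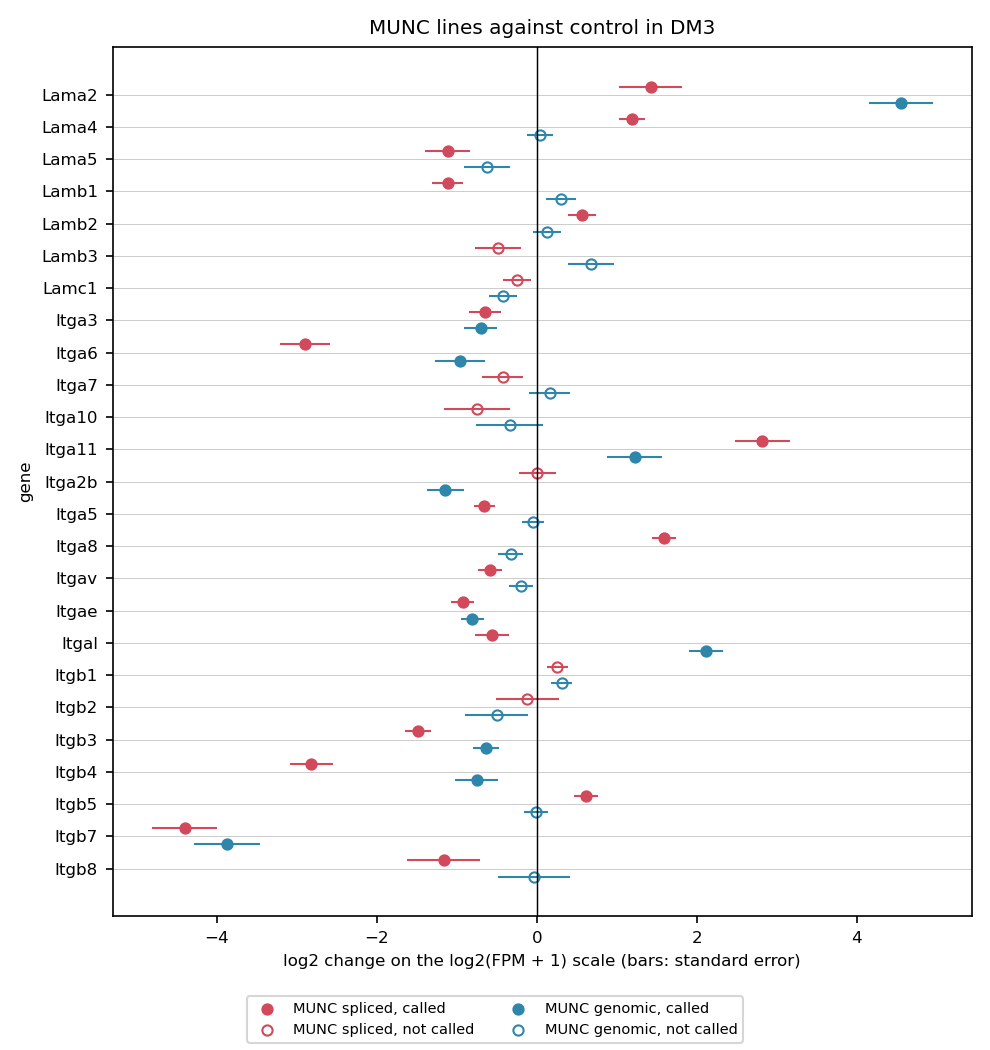
Log2 change of MUNC spliced and MUNC genomic cells against control in DM3 for 25 of the 26 tested genes, on the log2(FPM + 1) scale, with the standard error as bars. Filled points were called. Both lines lie far left in Itgb7 (-4.40 and -3.87), MUNC genomic lies far right in Lama2 (4.55), and MUNC spliced lies left in Itga6 and Itgb4 and right in Itga11. The comparisons share the 3 control libraries.

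The MUNC lines were also compared with each other. In GM, 4 genes were higher in MUNC spliced than in MUNC genomic cells (Itga2b, Itga7, Lama4 and Lamb2) and 8 lower (Lama2, Itga6, Itgal, Itgb4, Lamb3, Itga5, Itga3 and Lamb1), where the background was 19.9% and 16%. In DM3, 5 were higher (Itga8, Itga11, Lama4, Itga2b and Itgb5) and 9 lower (Lama2, Itgal, Itgb4, Itga6, Lamb1, Lamb3, Itga5, Itgav and Itgb3), where the background was 23.4% and 20.8%. The medians were -0.01 in GM and -0.40 in DM3, against 0.02 and 0.03 over all genes. Lama2, Itgal, Itga6, Itgb4, Lamb1, Lamb3 and Itga5 were lower in MUNC spliced cells in both media. Lama4 in both media and Itga8 in DM3 are counted although tested through their MUNC spliced libraries. In GM the block within each medium added Itga10 (0.77, limma adjusted p 0.0268), Itgb1 (0.19, limma adjusted p 0.046), Itgb8 (0.33, limma adjusted p 0.0359) and Itgav (-0.27, limma adjusted p 0.0105).

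The interaction tests whether a MUNC line changed on differentiation by more or less than control. In MUNC spliced cells it was called for Itga11 (1.54, SE 0.49, adjusted p 0.0466) and Itga8 (1.27, SE 0.22, adjusted p 0.00183), which changed more upward than in control, and for Itgb7 (-2.17, SE 0.58, adjusted p 0.0223), Itgb3 (-1.99, SE 0.23, adjusted p 0.000118) and Itga2b (-1.05, SE 0.33, adjusted p 0.0434), which changed more downward. Of the 26 genes, 2 were called upward and 3 downward, where the background was 7.43% and 6.94%. Itga8, tested through its MUNC spliced libraries alone, is counted here, and its call is a description. With FPM rescaled to equal sums the counts were 1 upward and 3 downward. With the replicate block 9 genes were called, 2 upward and 7 downward, the added ones being Itgb8 (-1.65, limma adjusted p 0.0109), Itga10 (-1.47, limma adjusted p 0.0484), Itga7 (-0.90, limma adjusted p 0.0497) and Itga5 (-0.51, limma adjusted p 0.016). The numbers do not pair the samples by the rule in DM3 against GM of either MUNC line, which these tests include. The Itga8 value turned to -3.75 in edgeR and -3.29 in DESeq2 on the recovered reads, where control GM has no reads of it, and was not called there (adjusted p 0.239 and 0.157, within 0.000213 to 0.239 over the alternatives). The Itga11 call was lost in 15 of 23 alternatives, among them those without any 1 of the control GM libraries, MUNC spliced GM replicates 1 or 3, control DM3 replicates 2 or 3, or MUNC spliced DM3 replicate 3. The Itga2b call was lost in 12 of 23, among them those without replicate 1 or 3 of control GM, 2 or 3 of MUNC spliced GM, 2 or 3 of control DM3, or 1 or 2 of MUNC spliced DM3. The Itgb7 call was lost in 4 of 23, with no filter and without control GM replicate 1 or control DM3 replicates 2 or 3. In MUNC spliced cells Itgb3 was called in each of its 23 alternatives. In MUNC genomic cells Itgb3 alone was called (-0.82, SE 0.23, adjusted p 0.0332), 1 gene downward and 0 upward of 26, where the background was 5.25% and 3.56%. This call was lost in 9 of its 23 alternatives, over which the adjusted p from limma, edgeR or DESeq2 ran from 0.00534 to 0.0903. It was lost with no filter (-0.82), without control GM replicate 1 (-0.80) or 3 (-0.80), MUNC genomic GM replicate 1 (-0.74) or 2 (-0.70), control DM3 replicate 2 (-0.76) or 3 (-0.74), and MUNC genomic DM3 replicate 2 (-0.79) or 3 (-0.75). The Itgb7 value, -1.92 (SE 0.58, adjusted p 0.05), was just outside the threshold. With the replicate block 3 genes were called there, all downward, with Itgb7 (limma adjusted p 0.0125) and Itga3 (-0.70, limma adjusted p 0.0458) added.

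The proteins that link integrins to the cytoskeleton were described by a list of 31 adaptors and partners, of which 29 were tested. The share of all 13869 genes called is given beside each count, higher first. In control DM3 against GM 11 were higher and 6 lower (29.6% and 28.6% of all genes, median 0.06), led by Tns1, a tensin of fibrillar adhesions (1.36, adjusted p 2.87e-05), and Kank2, which joins talin to the cell cortex (0.86, adjusted p 1.38e-06). Against control in DM3, MUNC spliced cells had 5 higher and 11 lower (22.3% and 21%, median -0.20). Zyx, the focal adhesion protein zyxin (-1.95, adjusted p 4.86e-08), and Parvb, a partner of integrin-linked kinase (-1.51, adjusted p 3.71e-07), fell most, and Kank1 (2.46, adjusted p 3.52e-05) and Tln2, a talin of striated muscle (1.08, adjusted p 4.43e-06), rose most. MUNC genomic cells had 8 higher and 4 lower in DM3 (19.3% and 20.9%, median 0.13), with Kank1 (2.08, adjusted p 0.000171) and the tetraspanin gene Cd9 (0.91, adjusted p 0.000997) highest and Lims2 (-1.05, adjusted p 8.25e-06) and Tns1 (-0.61, adjusted p 0.0227) lowest. In GM the counts against control were 4 higher and 7 lower in MUNC spliced (18.2% and 17.3%, median -0.08) and 4 and 3 in MUNC genomic cells (12.2% and 14.5%, median 0.16), and Zyx was lower in both (-1.21, adjusted p 1.52e-05 and -0.69, adjusted p 0.00279). On differentiation of MUNC spliced cells 3 were higher and 3 lower (17.2% and 18.4%, median -0.04), and of MUNC genomic cells 10 and 4 (26.3% and 25.1%, median 0.24). Between the lines, MUNC spliced had 2 higher and 7 lower in GM (19.9% and 16%, median -0.10) and 2 and 13 in DM3 (23.4% and 20.8%, median -0.31). In the interaction 0 genes moved upward and 3 downward in MUNC spliced cells (7.43% and 6.94%). In MUNC genomic cells 1 moved upward, Rsu1 (0.58, adjusted p 0.0199), and 0 downward (3.56% and 5.25%).

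A second list held 28 other ligands of integrins and laminin partners, of which 22 were tested. Agrn, agrin, which binds laminin and clusters acetylcholine receptors, rose most on differentiation of control (3.65, adjusted p 1.24e-08) and of MUNC spliced cells (3.06, adjusted p 1.43e-07). It was lower than control in MUNC genomic DM3 (-2.83, adjusted p 3.85e-08), and its interaction there was -2.98, adjusted p 2.26e-05. Postn, the matrix protein periostin, was higher than control in MUNC spliced cells (2.31, adjusted p 4.95e-05 in GM, 3.69, adjusted p 1.95e-07 in DM3) and in MUNC genomic cells (1.59, adjusted p 0.00156 and 2.00, adjusted p 0.000117). Ntn4, a netrin that disrupts laminin networks, was higher than control in MUNC genomic cells (2.45, adjusted p 9.66e-08 in GM, 2.77, adjusted p 1.19e-08 in DM3). The MUNC spliced libraries also lay above control in Ntn4, at 6.865 to 13.1 FPM against 1.37 to 2.44 in GM. In DM3 they were at 15.6 to 23.3 FPM against 5.11 to 6.53 in control. The nidogens, which bridge laminin and collagen IV, differed in MUNC spliced DM3, where Nid2 was above control (2.67, adjusted p 1.18e-05) and Nid1 below (-1.20, adjusted p 0.000122). Nid2 was also above control in MUNC spliced GM (2.07, limma adjusted p 0.000219). In MUNC genomic DM3, Nid2 was at 197 to 235 FPM, above the 92.8 to 125 of control DM3. Nid1 was at 446 to 478 FPM there, below the 536 to 1022 of control DM3. Col4a1, of basement membrane collagen IV, was lower in MUNC spliced than MUNC genomic cells in GM (-1.74, adjusted p 2.06e-08) and DM3 (-1.90, adjusted p 4.26e-09), as was Lamb1. Over the list, 11 were higher and 5 lower on differentiation of control (29.6% and 28.6% of all genes), 8 and 2 of MUNC spliced (17.2% and 18.4%) and 12 and 5 of MUNC genomic cells (26.3% and 25.1%). The medians were 0.46, 0.25 and 0.73, against 0.02, -0.01 and 0.02 over all genes. Against control the counts were 5 higher and 4 lower in MUNC spliced GM (18.2% and 17.3% of all genes), and 5 and 3 in MUNC genomic GM (12.2% and 14.5%). They were 5 and 5 in MUNC spliced DM3 (22.3% and 21%), and 9 and 5 in MUNC genomic DM3 (19.3% and 20.9%). The medians were 0.12, 0.30, -0.21 and 0.28 in this order. Between the MUNC lines MUNC spliced cells had 3 higher and 4 lower in GM (19.9% and 16% of all genes, median -0.03) and 7 and 7 in DM3 (23.4% and 20.8%, median -0.16). The interaction was called for 1 gene upward and 2 downward in MUNC spliced cells (7.43% and 6.94% of all genes) and for 3 upward and 2 downward in MUNC genomic cells (3.56% and 5.25%).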

How the data were processed

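Per the labels' protocols, poly(A)-enriched RNA of the 18 samples was read on an Illumina HiSeq. The submitters' processing notes name STAR, HTSeq, DESeq2 and the build mm10, with no role. The annotation and strand setting are not given in the sources used here. The authors deposited a normalized signal in FPM for 35275 genes. A label calls it fpkm, but 100% of values were whole multiples of 1 step per library within a tolerance of 0.1 read, so the signal is read counts divided by a size factor.

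The main test was a limma fit (version 3.58.1, R 4.3.3) to log2(FPM + 1), with a mean-variance trend, all 6 group means in 1 fit with 12 residual degrees of freedom, and Benjamini-Hochberg adjustment over 13869 genes, those that reached 0.5 FPM in 3 libraries. Scripts were tested on simulated data. edgeR 4.0.16 and DESeq2 1.42.0 ran on the recovered reads as alternatives. Against 8078 genes called by limma for control DM3 against GM, edgeR called 8034 and DESeq2 8396. Other alternatives changed the pseudocount, filter, scaling, groups fitted and replicates. Exon lengths came from GENCODE M21 (GRCm38), which held 34490 of the identifiers, and promoters from RefSeq on GRCm38.p6. The authors' deposited comparison tables were not used, except 1 for gene symbols.

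The members, gene lists, rules and tests were chosen with earlier results of these data known. Itga7, Itgb1 and Lama2 are named in the first 7 comparisons. In each comparison called genes with an absolute log2 change of at least 1 are named, at most the 6 highest and 6 lowest, and from each partner list at most 2 called genes in each direction; genes named beyond this were chosen after their values were seen. Counts cover all 26 tested genes, but the values of 1 of them are not reported here. The marker lists were leukocyte, endothelial, epithelial, Schwann, myoblast and myotube, and fibroblast.

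The labels give every group replicates 1 to 3 and no batch. Deviations from group means of same-numbered libraries correlated at 0.171 to 0.726 across genes in the comparisons of a MUNC line with control and at 0.203 to 0.411 in control DM3 against GM, so the numbers pair the samples there by the rule that each pair exceeds 0.1. The labels do not say what a number shares, so the p-values measure the spread between these samples.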

Additional observations from a re-analysis of the deposited data

Results flagged for a closer look

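The change on differentiation differed from that of control cells, by limma's interaction test, for 5 genes in MUNC spliced cells and 1 in MUNC genomic cells. In MUNC spliced cells the difference was 1.54 for Itga11 and 1.27 for Itga8 upward, and -1.05 for Itga2b, -1.99 for Itgb3 and -2.17 for Itgb7 downward, on the log2(FPM + 1) scale. In MUNC genomic cells it was -0.82 for Itgb3. This call was lost in 9 of its 23 alternatives. Itga8 passed the filter on low values through MUNC spliced libraries alone, so its value is a description.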

How the results depend on the processing

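Of 1491 alternative values of single genes, 1413 kept their direction and side of the threshold, 55 lost the call, 18 gained it and 5 reversed. Leaving out 1 library at a time moved Itgb1 in MUNC genomic against control GM between -0.068 and 0.10, below 0 without control GM replicate 1 or MUNC genomic GM replicate 2 (-0.066), and Itga7 in MUNC genomic against control DM3 between -0.061 (without control DM3 replicate 1) and 0.28, none of these called. The Itga8 interaction in MUNC spliced cells reversed to -3.75 in edgeR and -3.29 in DESeq2. Of 205 alternative counts of called genes 182 stayed within 1.5 times. Leaving out 1 library at a time gave 3 to 7 genes for MUNC genomic against control GM, 2 to 7 for the MUNC spliced interaction and 0 to 2 for the MUNC genomic interaction; the 3 came without control GM replicate 1, the 2 without control GM replicate 1 or control DM3 replicate 2 or 3, and 0 without control GM replicate 1, MUNC genomic GM replicate 1, control DM3 replicate 2 or 3, or MUNC genomic DM3 replicate 2 or 3. The MUNC spliced interaction gave 3 genes with a pseudocount of 0.1, 3 in edgeR, 3 with only the compared groups and 2 with no filter on low values. The MUNC genomic interaction gave 2 with a pseudocount of 0.5, 2 with FPM rescaled to equal sums, 2 in DESeq2, 4 with only the compared groups and 0 with no filter. The cause was not tested. Rescaling to equal sums moved the median of all genes by 0.11 for MUNC spliced against control GM, and the counts there became 7 higher and 6 lower.

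With the replicate block, the interaction counts were 9 in MUNC spliced and 3 in MUNC genomic cells, and the paired fit within each medium gave 18 for MUNC genomic against control DM3. The other counts stayed within 1.5 times under the block. Same-numbered libraries did not all exceed a correlation of 0.1 in DM3 against GM of MUNC spliced (0.0163 at the lowest) and MUNC genomic cells (0.0531), or between the MUNC lines in DM3 (0.0939). There the block added Itgb1 (limma adjusted p 0.0139) and Itgb8 (0.0305) in MUNC spliced cells, Lama5 (0.0255) in MUNC genomic cells, and Itga7, Itgb8, Lama5 and Lamb2 (0.00521 to 0.0407) between the lines, with Itgb7 (0.0214) added by the fit within each medium. Depth limits genes near 0, where a gene at 0.0757 FPM can rest on 3 reads. With 3 libraries per group, a missed call does not show that levels are equal.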
